A study of Homo sapiens with 6 samples.

Results

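A set of 10 collagen genes was followed by symbol in RNA of SUM159, a human cell line from a breast cancer that lacks hormone receptors and HER2 amplification: the fibril-forming chains COL1A1, COL1A2, COL3A1, COL5A1 and COL5A2, the type VI microfibril chains COL6A1, COL6A2 and COL6A3, the fibril-associated chain COL12A1 and the network chain COL8A1. All 10 were found among the 60675 genes of the table, and 34 further collagen genes served for comparison. Of 6 mRNA libraries, 3 carried the label control (DAPK3 WT) and 3 the label DAPK3 KO, all of the latter from knockout line 3, so a difference particular to that line cannot be told apart from one due to the knockout. DAPK3 is a serine/threonine kinase. Both groups were grown in Ham's F-12 medium to which FBS (5%), HEPES (10 mM), insulin (5 μg/mL) and the steroid hydrocortisone (1 μg/mL) had been added. Nothing in the labels ties the libraries of a group to separate cultures, and p-values then measure the spread between libraries, which may be technical.

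Collagens are secreted as triple helices of 3 chains and are laid down mostly by fibroblasts and other mesenchymal cells, and by carcinoma cells with mesenchymal traits. Type I is the main fibril of skin, bone and tumour stroma and is usually built from COL1A1 and COL1A2 chains, although trimers of COL1A1 chains alone are known. Type III, encoded by COL3A1, and type V, encoded mainly by COL5A1 and COL5A2, are laid down in the same fibrils, and type V starts their assembly and limits their width. Type XII, from COL12A1, coats the fibril surface. Type VI is a trimer of COL6A1, COL6A2 and COL6A3 chains that forms beaded microfibrils around cells. Type VIII, from COL8A1 and COL8A2, forms hexagonal sheets under endothelia and in the vessel wall.

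The promoter sequences of 4 of the 10 genes were matched by symbol in RefSeq (GRCh38.p14): COL5A1 and COL12A1, 2 fibril genes, and COL6A2 and COL6A3, 2 chains of the type VI trimer. All 4 that were matched are shown, as the start regions of genes that moved together across the libraries. Each window runs from 250 bases before to 50 bases after the annotated start and is written 5′ to 3′ on the strand of the gene. Capitals mark the GC box GGGCGG and the TATA box TATAAA, searched on both strands.
COL5A1 (chr9:134641553-134641852, plus strand): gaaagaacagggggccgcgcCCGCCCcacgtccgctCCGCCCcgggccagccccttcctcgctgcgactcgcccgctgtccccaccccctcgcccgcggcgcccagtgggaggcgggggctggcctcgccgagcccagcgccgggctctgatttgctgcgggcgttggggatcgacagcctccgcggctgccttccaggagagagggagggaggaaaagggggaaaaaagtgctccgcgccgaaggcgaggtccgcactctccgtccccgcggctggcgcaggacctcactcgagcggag
COL12A1 (chr6:75206004-75206303, minus strand): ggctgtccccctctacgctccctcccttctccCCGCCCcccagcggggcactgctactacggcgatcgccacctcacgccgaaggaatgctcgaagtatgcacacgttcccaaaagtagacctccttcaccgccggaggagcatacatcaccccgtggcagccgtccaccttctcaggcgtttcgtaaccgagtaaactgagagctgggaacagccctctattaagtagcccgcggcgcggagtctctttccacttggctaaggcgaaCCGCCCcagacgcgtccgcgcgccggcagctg
COL6A2 (chr21:46097862-46098161, plus strand): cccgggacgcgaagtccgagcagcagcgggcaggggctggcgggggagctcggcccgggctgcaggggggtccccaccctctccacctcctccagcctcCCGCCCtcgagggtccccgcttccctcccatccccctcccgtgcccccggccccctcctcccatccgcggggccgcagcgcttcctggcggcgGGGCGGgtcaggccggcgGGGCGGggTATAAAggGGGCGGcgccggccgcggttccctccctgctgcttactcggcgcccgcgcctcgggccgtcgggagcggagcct
COL6A3 (chr2:237414115-237414414, minus strand): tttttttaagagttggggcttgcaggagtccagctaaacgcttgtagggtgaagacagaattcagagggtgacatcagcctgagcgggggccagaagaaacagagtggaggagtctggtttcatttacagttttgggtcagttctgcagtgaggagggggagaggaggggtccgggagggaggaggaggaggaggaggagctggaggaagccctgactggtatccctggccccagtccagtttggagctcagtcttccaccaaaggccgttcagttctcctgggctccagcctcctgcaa
The COL6A2 window held 4 GC boxes and 1 TATA box, those of COL5A1 and COL12A1 held 2 GC boxes each, and that of COL6A3 held neither motif. Of 27305 promoter windows of 300 bases, 44.6% held a GC box and 12% a TATA box. CCAAT, the CCAAT box, was in none of the 4 windows and in 35.7% of all, and TGANTCA, an AP-1 site, in none of the 4 and in 7.76% of all. CAGAC, a Smad box, was in those of COL6A3 and COL12A1 and in 45.0% of all; in COL12A1 it begins directly after a GC box, with no overlap. G and C made up 56.3% of the COL6A3 window and 79.3% of the COL6A2 window, against a median of 58.3% over all windows. A match of letters is a description, not a site or a cause, and which start these cells used was not measured.

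Library totals lay between 16312184 and 22970823 expected counts, which are read numbers estimated per gene. Levels are in CPM, counts scaled to a common library total with TMM factors, with a floor of 0.13 to 0.186 CPM per library for 3 counts, which covers counting error only. DAPK3 RNA went against the label in 1 library of each group, namely control R2 and KO R2, and each test is given with and without them. Control and KO below name only what a library was labelled, and the values of a group are listed throughout in the order R1, R2, R3. DAPK3 stood at 26.2, 10.5 and 26.1 CPM in control and at 13.1, 27.2 and 11.2 CPM in KO. Its log2 fold change by label was −0.29 (SE 0.47), with an edgeR adjusted p of 0.88, and −1.13 (SE 0.16) without both R2 libraries, with an edgeR adjusted p of 0.00361. A deleted gene can still be transcribed, and the RNA level does not fix a library's genotype. Of the markers of a mesenchymal-type breast line, all 5 (VIM, CD44, ZEB1, AXL and CAV1) were above 1 CPM. Their summed level, 2830 to 5090 CPM in control and 2030 to 4000 CPM in KO, was lowest in KO R1, KO R3 and control R2. The hormone receptor genes PGR and ESR1 were at 0 and at most 0.478 CPM, and the luminal list of 7 genes, carried by ERBB2, summed to 74.5 to 104 CPM in control and 58.5 to 70.8 CPM in KO. The summed fibroblast and mural marker list, 10 genes with DPT at 0 in all libraries and FAP at most 0.101 CPM, ran from 76.1 to 82.9 CPM in control and from 53.4 to 74.8 CPM in KO. That sum did not divide the libraries as the collagens did, with control R2 at 76.1 and KO R2 at 60.5 CPM, but single genes of the list did. Among its 7 genes tested without both R2 libraries, PDGFRB, THY1 and TAGLN were called lower and ACTA2 higher. In that comparison 27.3% of all genes were called. THY1, with 2 and 5 counts in KO R1 and R3, passed the filter on low counts through control only, so it had to differ to be tested. PDGFRB stood at 16.8, 1.96 and 19.4 CPM in control and at 1.17, 11.5 and 1.17 CPM in KO, whereas ACTA2 went the opposite way, at 11.9, 28.0 and 10.4 CPM in control and at 21.0, 12.3 and 26.2 CPM in KO. The endothelial list, with CDH5 at 0, summed to 2.44 to 3.12 CPM in control and 0.955 to 2.6 CPM in KO, and the blood list to 1.05 to 4.28 CPM and 0.825 to 3.96 CPM. Within the blood list PTPRC, the leukocyte CD45 gene, moved with the collagens, at 2.98, 0.0478 and 2.92 CPM in control and 0.106, 3.28 and 0 CPM in KO. HBB, the other gene of that list tested, did not, at 0.342, 0.526 and 1.26 CPM in control and 0.691, 0.371 and 0.564 CPM in KO. LYZ was highest in control R2, at 0.478 CPM. The sum of the skeletal list also moved with the collagens, through RUNX2, at 5.93 to 35.5 CPM in control and 5.51 to 44.2 CPM in KO. Its genes SP7 and IBSP were at 0. Of its 2 genes tested without both R2 libraries, 1 was called lower (log2 fold change −2.71). The other was not called and went the opposite way (0.987). The part of other cells in the collagen values was not tested. In bulk RNA, fewer cells that express a gene and less RNA per cell cannot be told apart.

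Of the 10 collagen genes, 8 were high in control R1, control R3 and KO R2 and low in control R2, KO R1 and KO R3, the division that DAPK3 RNA itself made. COL8A1 was divided the opposite way, and COL1A2 was at or near 0 in all 6 libraries. How many of all genes were divided in this way over the 6 libraries was not counted. With both R2 libraries left out, the groups did not overlap in 66.3% of 14846 genes, so such a division is not particular to collagens. In all 10 the labelled groups overlapped, whereas they did not overlap in 13.8% of the 14613 genes tested.

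COL1A1 (ENSG00000108821, GRCh38 chromosome 17, 50183289 to 50201632, minus strand) stood at 492, 64.0 and 626 CPM in control and at 57.2, 540 and 55.6 CPM in KO. Within one label the highest library was thus 9.78 times the lowest in control and 9.71 times in KO. COL1A2 (chromosome 7, 94394561 to 94431232, plus strand), the partner chain of COL1A1 in type I collagen, had 5, 0 and 4 counts in control and 0, 1 and 0 in KO, at most 0.244 CPM, and it did not pass the filter on low counts. These counts come with 1076 to 12433 counts for COL1A1 in the same libraries, so the reads of the type I pair were almost wholly COL1A1 in each of the 6. An annotated antisense gene, AC002074.1, lies over COL1A2.

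COL3A1 (chromosome 2, 188974320 to 189012746, plus strand) was present at a low level, with 8.84, 0.239 and 10.2 CPM in control and 0.213, 7.79 and 0.478 CPM in KO. The low values rest on 4 to 11 counts. In counts, control R1 held 37.0 times the level of control R2 (95% exact interval 15.6 to 115; this and the intervals on COL6A2 cover counting error only).

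COL5A1 (chromosome 9, 134641774 to 134844843, plus strand) stood at 366, 17.5 and 531 CPM in control and at 20.5, 372 and 20.5 CPM in KO. COL5A2 (chromosome 2, 189031896 to 189225312, minus strand) stood at 183, 69.7 and 154 CPM in control and at 44.5, 165 and 67.0 CPM in KO. The division was wide for COL5A1, at 30.3 times within control, and narrower for COL5A2, at 2.63 times. COL5A2 and COL3A1 are convergent neighbours with 19149 bases and no annotated gene between them, yet COL3A1 spanned 42.5 times within control. Antisense genes lie over the spans of COL5A1 (COL5A1-AS1) and COL5A2 (AC133106.1), and no strand setting is stated. Whether exons overlap and reads are shared was not tested. The expected counts of COL5A1 and COL5A2 were whole in every library.

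COL12A1 (chromosome 6, 75084326 to 75206051, minus strand) stood at 541, 43.5 and 541 CPM in control and at 47.7, 502 and 62.9 CPM in KO. Among the members, COL12A1 and COL1A1 had the closest profiles, with a root mean square difference of 0.25 between their log2 CPM values centred over the 6 libraries.

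The type VI chains were divided to different degrees. COL6A3 (chromosome 2, 237324003 to 237414375, minus strand), the largest chain, stood at 753, 11.6 and 1119 CPM in control and at 23.2, 888 and 16.4 CPM in KO. COL6A2 (chromosome 21, 46098097 to 46132849, plus strand) stood at 20.5, 0.143 and 46.2 CPM in control and at 0.159, 29.5 and 0.174 CPM in KO, the low values resting on 3 or 4 counts per library. COL6A1 (chromosome 21, 45981737 to 46005050, plus strand) stood at 32.9, 10.1 and 51.0 CPM in control and at 7.81, 32.2 and 7.42 CPM in KO. Within control, COL6A2 spanned 322 times from lowest to highest and COL6A3 96.4 times, but COL6A1 only 5.06 times. By counts, COL6A2 in control R1 was 143 times its level in control R2 (95% exact interval 48.5 to 695). COL6A1 and COL6A2 lie on the same strand, with 93046 bases and 5 annotated genes between them.

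COL8A1 (chromosome 3, 99638475 to 99799226, plus strand) was the one member that was lowest where the others were high. It stood at 924, 1411 and 921 CPM in control and at 1738, 1142 and 1698 CPM in KO. The groups overlapped through the same 2 libraries, since control R2 exceeded KO R2. COL8A2, the other type VIII chain, was at most 0.217 CPM.

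**Figure D1:**
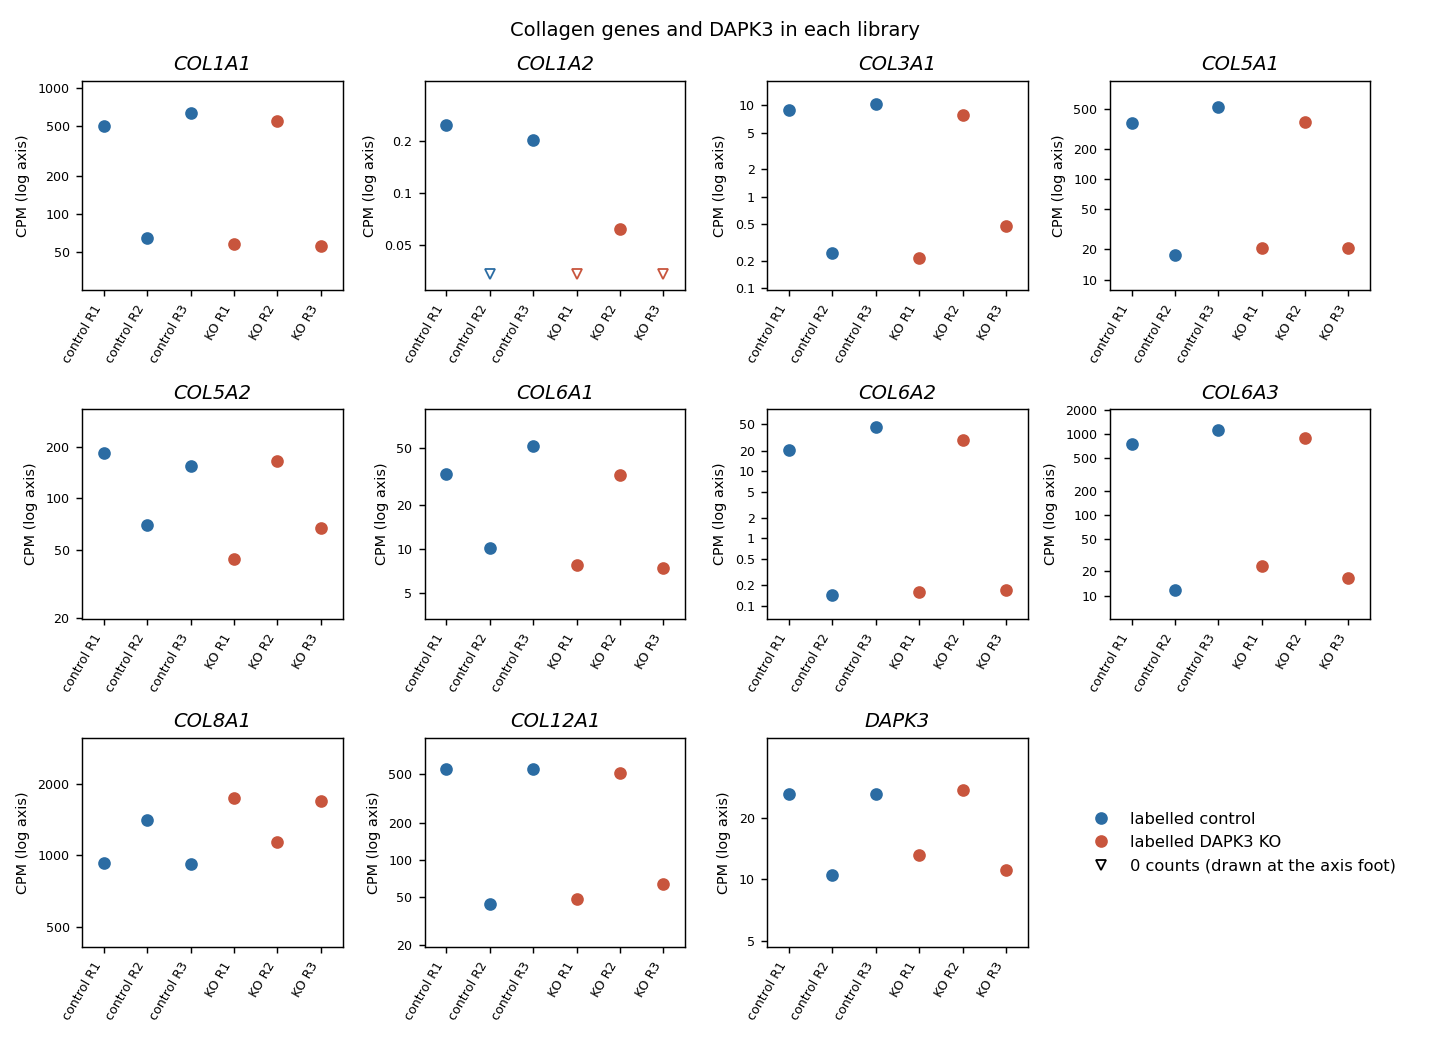
CPM on a log axis for the 10 collagen genes and DAPK3 in each of the 6 libraries, blue for labelled control and red for labelled DAPK3 KO, open triangles for 0 counts; there are no error bars because each point is 1 library. Control R2 lies with KO R1 and KO R3, and KO R2 with control R1 and R3, in each panel, except that KO R2 has 1 count of COL1A2 and COL8A1 runs the opposite way.

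By DAPK3 RNA, the libraries ordered as control R2 (10.5 CPM), KO R3 (11.2), KO R1 (13.1), control R3 (26.1), control R1 (26.2) and KO R2 (27.2). For each of the 8 genes the 3 libraries with the lowest DAPK3 were also the 3 with the lowest collagen level, and for COL8A1 the 3 with the highest. The share of all genes ordered in this way was not counted. Inside each set of 3 the order of the collagens did not follow that of DAPK3 in common: COL6A3 was lowest in control R2 but COL5A2 in KO R1 and COL1A1 in KO R3. As the values fall in 2 separate clusters, no correlation over the 6 libraries is given, and no groups were formed or tested by DAPK3 level.

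**Figure D2:**
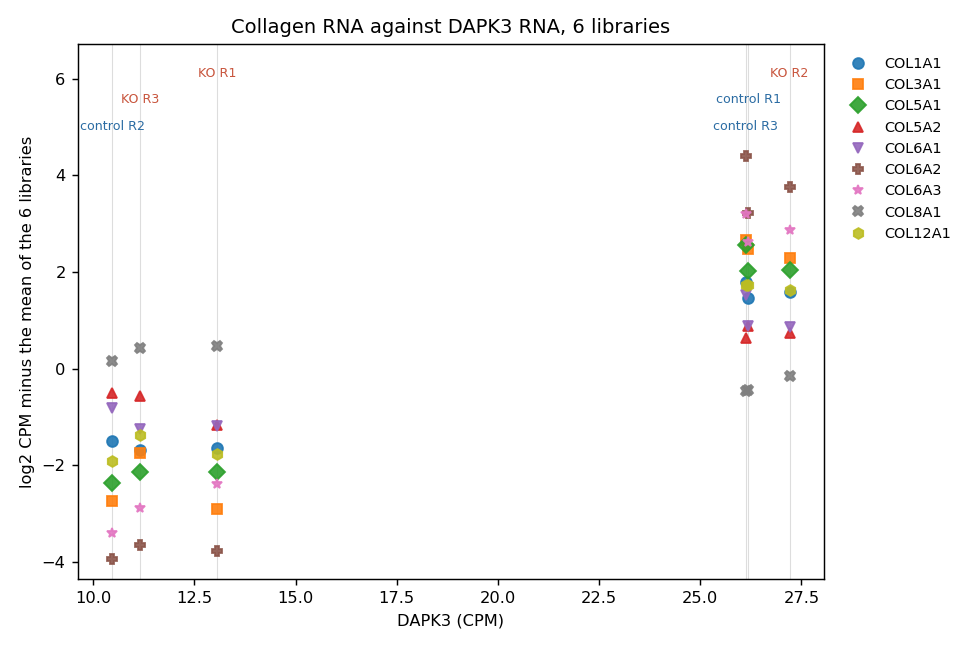
The 9 collagen genes with enough counts, as log2 CPM minus the gene's mean over the 6 libraries (y), against DAPK3 in CPM (x); each symbol is 1 gene in 1 library and vertical lines mark the libraries. Symbols of 8 genes lie below 0 at the 3 DAPK3 values up to 13.1 CPM and above 0 from 26.1 CPM, and those of COL8A1 lie the other way.

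Between genes, levels were compared as CPM per kb of merged exons. COL8A1 was the most abundant of all 44 collagen genes in each of the 6 libraries, at 97.8 to 185 CPM per kb, and this rank held with the principal transcript's length in place of merged exons. Among the other members, COL1A1 ranged over the 6 libraries from 5.66 to 63.7, COL6A3 from 0.591 to 57.0, COL5A1 from 1.57 to 47.5, COL12A1 from 3.49 to 43.3 and COL5A2 from 5.97 to 24.6 CPM per kb. COL6A1 ranged from 1.39 to 9.55, COL6A2 from 0.0266 to 8.58 and COL3A1 from 0.0312 to 1.49 CPM per kb. Their order changed with the library: COL1A1 was second of the 44 genes in control R1, control R3 and KO R2 but rank 11 in the other 3, and COL6A1 was above COL6A3 in control R2, KO R1 and KO R3 only. With the principal transcript's length COL1A1 was rank 3 in control R3 and KO R2 and rank 10 in KO R1. By that length COL6A3 was above COL6A1 in KO R1. The ranges of neighbours in the order from COL1A1 to COL3A1 overlapped, so parts of that order are not separated from the spread between libraries. Within each of the 6 libraries, however, COL1A1 was above COL5A1 and COL12A1 with either length. COL8A1 lay above all these ranges, and COL1A2, at most 0.0219 CPM per kb of merged exons, lay below them.

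The make-up of collagen RNA differed accordingly between libraries of one label. COL8A1 held 23.7%, 35.5% and 19.0% of the summed CPM per kb of the 44 genes in control and 38.4%, 26.3% and 38.2% in KO. The other 9 members together held 48.4%, 5.55% and 49.0% in control and 4.18%, 45.2% and 5.05% in KO. COL17A1, a transmembrane collagen of hemidesmosomes, held 0.646%, 18.0% and 0.665% in control and 19.9%, 0.587% and 17.0% in KO. The summed level itself varied less, from 414 to 514 CPM per kb.

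**Figure D3:**
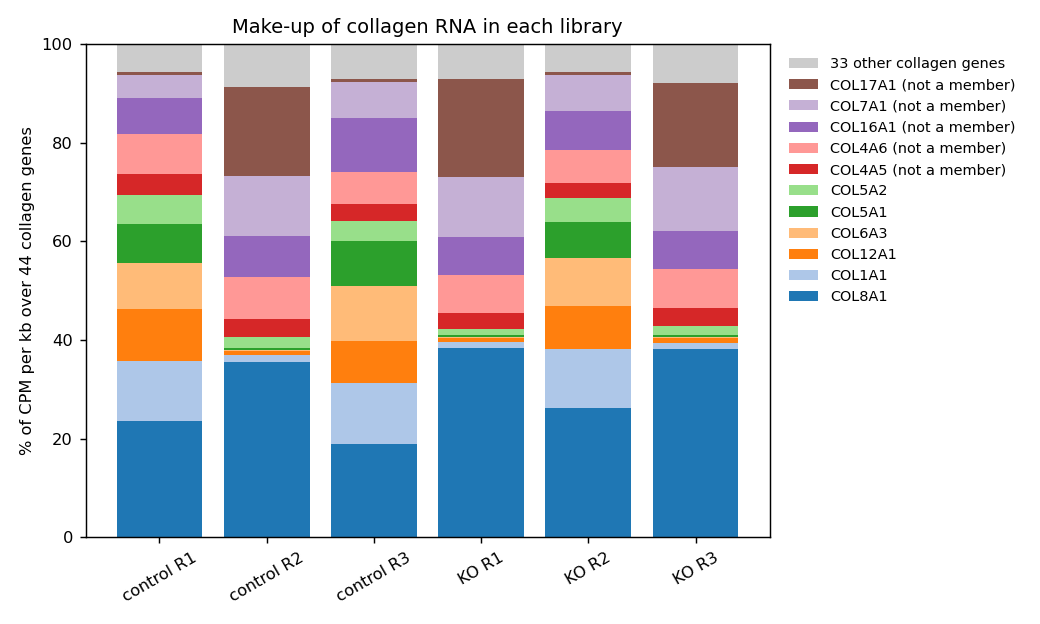
Share of the summed CPM per kb over 44 collagen genes (y, percent) in each library (x), stacked by gene, with a fixed choice of genes coloured and all others in grey. Grey genes are not always the less abundant: in control R2 the grey COL4A2 held 2.59% and the coloured COL6A3 0.14%. COL8A1 is the bottom block in all 6 bars, and the blocks of COL1A1, COL12A1, COL6A3, COL5A1 and COL5A2 are wide in control R1, control R3 and KO R2 and thin in the other 3.

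The comparison that the labels give, 3 libraries labelled KO against 3 labelled control, asks which genes change on DAPK3 knockout. None of the 10 collagen genes was called by edgeR's quasi-likelihood test, and 0% of all 14613 genes were called. Nor did any of the 9 tested pass at an unadjusted p under 0.05, where 510 of all genes were higher and 609 lower. The limma-voom test called 0 of the 9, and DESeq2 0 of the 7 for which it gave an adjusted p (none for COL3A1 and COL12A1). The 9 fold changes had a median of −0.99 on the log2 scale, against −0.00034 over all genes, with standard errors mostly as large as the changes. COL6A3 stood at −1.02 (SE 1.81, edgeR adjusted p = 0.89), COL1A1 at −0.86 (SE 1.12, edgeR adjusted p = 0.85) and COL6A1 at −0.99 (SE 0.76, edgeR adjusted p = 0.76). The smallest p was that of COL8A1, at 0.49 (SE 0.24, edgeR adjusted p = 0.67). The standard error was thus larger than the labelled difference for 6 of the 8 genes with a negative value, COL5A2 and COL6A1 being the exceptions.

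Without control R2 and KO R2, a choice made with earlier results of these data known, 8 of the 9 tested collagen genes were called lower and COL8A1 higher in the 2 libraries labelled KO. The background was high: edgeR called 27.3% of 14846 genes, 15.2% lower and 12.2% higher, and the groups did not overlap in 66.3%. Because the label and DAPK3 RNA go together in these 4 libraries by choice, this is no independent support for the labels. The median of the 9 was −3.32 on the log2 scale, against −0.02 over all genes, and COL3A1 and COL6A2 passed the filter on low counts through the control libraries only.

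By size, the type VI chains COL6A2 and COL6A3 fell furthest, by 7.61 (SE 0.60, edgeR adjusted p = 0.000365) and by 5.59 (SE 0.28, edgeR adjusted p = 7.1e-05) on the log2 scale. For COL6A2 the fitted value depends on the prior count, and the counts, 1337 in control against 7 in KO, summed over 2 libraries each, give a ratio of 198 (95% exact interval 95.9 to 494), which leaves out the spread between libraries, control R1 and R3 having 419 and 918 counts. COL6A1 fell by 2.48 (SE 0.24, edgeR adjusted p = 0.000832). The fibril genes COL3A1, COL5A1, COL1A1 and COL5A2 fell by 4.73 (SE 0.40), 4.47 (SE 0.22), 3.33 (SE 0.16) and 1.61 (SE 0.21), with edgeR adjusted p from 7.0e-05 to 0.00239. COL12A1 fell by 3.30 (SE 0.17), and COL8A1 rose by 0.88 (SE 0.11, edgeR adjusted p = 0.00245). COL1A2 was again not tested.

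**Figure D4:**
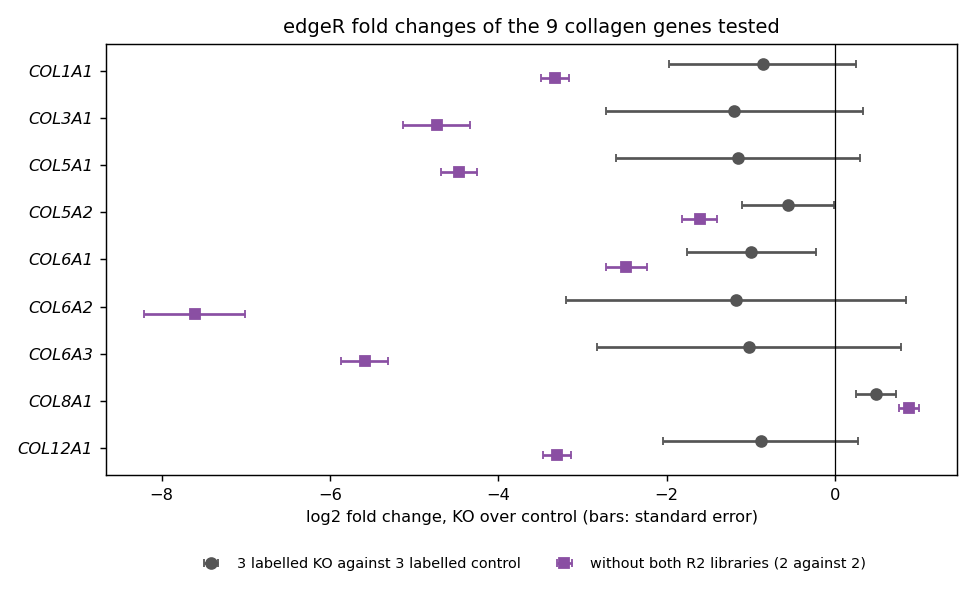
log2 fold change of KO over control with its standard error for the 9 collagen genes tested, circles for all 6 libraries and squares without both R2 libraries. With 6 libraries 6 of the error bars of 1 standard error cross 0, and without R2 none does, with COL6A2 at −7.61 and COL8A1 at 0.88.

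Chains that join in one trimer did not keep a fixed RNA ratio. Per kb, COL5A1 stood at 1.33, 0.168 and 2.3 times COL5A2 in control and at 0.306, 1.5 and 0.204 times in KO. COL6A3 stood at 6.22, 0.313 and 5.97 times COL6A1 in control and at 0.807, 7.5 and 0.602 times in KO. COL6A2 stood at 0.617, 0.0141 and 0.898 times COL6A1 in control and at 0.0202, 0.908 and 0.0232 times in KO. In each pair the libraries split as the single genes did. Which type VI chain was in excess depends in part on the length used: in KO R1, COL6A3 stood at 1.18 and COL6A1 at 1.46 CPM per kb of merged exons, but at 2.16 and 1.84 CPM per kb of the principal transcript. By label, the log2 ratio differed by −0.82 for COL5A1 to COL5A2, by −0.56 for COL6A3 to COL6A1 and by −1.34 for COL6A2 to COL6A1, all smaller than the spread within a label (SD 1.52 to 3.19, n = 3, exact two-sided permutation p = 0.8, 1.0 and 1.0). COL1A1 to COL1A2 differed by 0.42 (exact two-sided permutation p = 0.6), a value set by the 0 to 5 counts of COL1A2. With 4 ratios compared the adjusted p was 1.0 for each, and 3 against 3 cannot go below 0.1. Without both R2 libraries the differences were −2.80, −3.13, −4.91 and 0.06 in the same order, the smallest exact permutation p being 0.333. That is the lowest value the test can give with 2 libraries in each group, so it could not have called any of these differences.

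**Figure D5:**
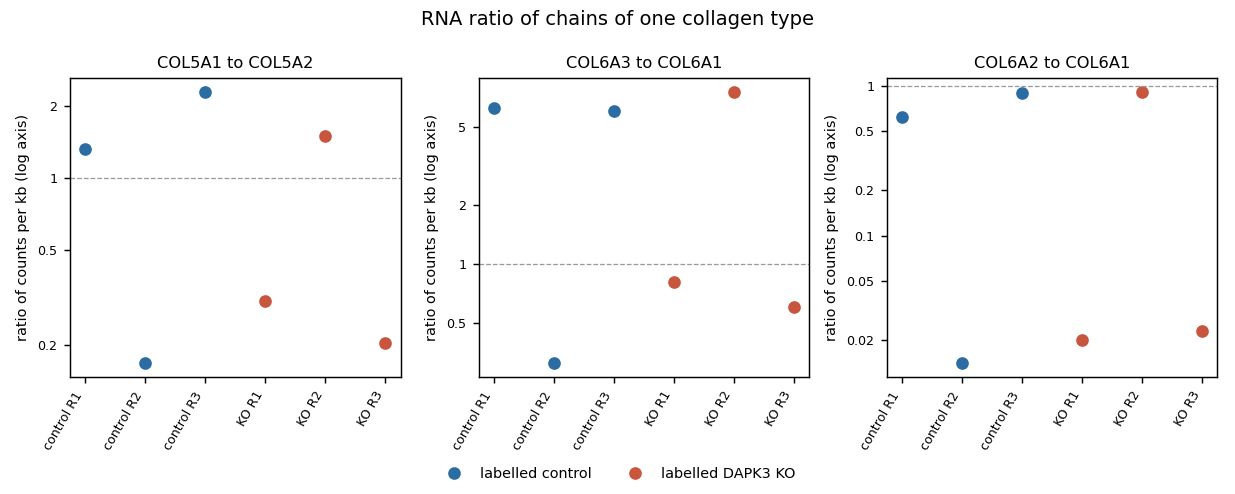
Ratio of counts per kb (log axis) between chains of type V and type VI collagen in each library, blue for labelled control and red for labelled KO, with a dashed line at equal levels. Lengths are merged exons, and a principal transcript length would shift each panel as a whole; control R2, KO R1 and KO R3 are the 3 lowest in every panel, and COL6A3 to COL6A1 is above 5 in the other libraries.

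Among the 34 other collagen genes, 19 did not pass the filter and 5 of the 34 had no counts at all. The 15 tested had a median log2 fold change of −0.10 by label, with 0 called by edgeR and 0 at an unadjusted p under 0.05. Without both R2 libraries 4 were lower and 5 higher, with a median of −0.03, where 15.2% of all genes were lower and 12.2% higher. The lower ones included the fibril chain COL5A3, which can join COL5A1 and COL5A2 in type V, at 6.69, 0.239 and 16.5 CPM in control and 0.106, 11.1 and 0 CPM in KO. The others were COL4A4 of basement membranes (log2 fold change −4.22, SE 0.56), the transmembrane COL13A1 (−3.32, SE 0.36) and COL28A1 (−1.20, SE 0.30). COL5A3, with 2 and 0 counts in KO R1 and R3, and COL4A4, with 1 and 3, passed the filter on low counts through control only. So did COL13A1, at 0.0903 and 0.0737 CPM per kb of merged exons in KO R1 and R3. COL17A1 was the higher gene of largest change (4.84, SE 0.18), at 18.9, 538.5 and 24.2 CPM in control and 675.7, 19.2 and 569.1 CPM in KO. The basement membrane pair COL4A1 and COL4A2, which form one trimer, moved alike, at 2.76 (SE 0.13) and 2.83 (SE 0.14). COL4A1 was measured at 17.8, 119.3 and 18.0 CPM in control and 116.1, 17.1 and 129.2 CPM in KO. The fibril-forming chain COL27A1 (1.79, SE 0.20) and COL7A1, of the fibrils that anchor epithelium (1.08, SE 0.28), were also higher. In each of these 9 except COL28A1, control R2 lay with KO R1 and KO R3 and KO R2 with control R1 and R3, which in KO R2 was 3.71 CPM against 3.72 CPM in KO R1. COL16A1, a fibril-associated chain like COL12A1, was not called, with 282, 325 and 528 CPM in control against 337, 337 and 333 CPM in KO (a change of −0.29 without both R2 libraries, SE 0.27, with edgeR adjusted p = 0.46).

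Genes that act with these collagens were counted from lists. By label, edgeR called none of any of these lists, and at an unadjusted p under 0.05 it had 2 lower genes of collagen synthesis and 2 higher and 1 lower promoter factor. The counts and values that follow are those without both R2 libraries, where 27.3% of all genes were called. PCOLCE (6 and 3 counts in KO R1 and R3), FBN1 (4 and 13) and PRRX1 (1 and 0) passed the filter on low counts through control only, and BGN (5 and 12 counts in control R1 and R3) through KO only, so that their fitted changes depend on the prior count and they had to differ to be tested.

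Of 12 collagen receptors listed, 9 were tested, 6 were lower and 3 higher, with a median log2 fold change of −0.74. The 4 largest changes were in integrin chains for collagen and a collagen receptor kinase: ITGA11 fell by 3.15 (SE 0.39), DDR2 by 3.10 (SE 0.26), ITGA1 by 1.88 (SE 0.16) and ITGA10 by 1.82 (SE 0.29) on the log2 scale. DDR2 was measured at 17.0, 1.67 and 24.2 CPM in control and 2.45, 27.2 and 2.39 CPM in KO, divided as the fibrillar collagens were. DDR1, its epithelial relative, and ITGA2, both named after their values were seen, were higher, at 1.03 (SE 0.18) and 0.98 (SE 0.12).

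Of 25 fibril and microfibril partners listed, 11 were tested, 8 were lower and 1 higher, with a median of −1.70. FBN1, encoding the microfibril protein fibrillin, fell by 5.15 (SE 0.44), FN1, encoding fibronectin, by 3.09 (SE 0.14) and the tenascin gene TNC by 2.88 (SE 0.12). FN1 was measured at 3904, 421 and 4288 CPM in control and 462, 3834 and 510 CPM in KO. The proteoglycan gene BGN rose by 3.24 (SE 0.46) from a low level, with 0.244, 3.49 and 0.604 CPM in control and 3.99, 0.433 and 4.17 CPM in KO.

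Of 37 genes of collagen synthesis and cross-linking listed, 33 were tested, 18 were lower, 0 higher and 15 not called, with a median of −0.68. PCOLCE, an enhancer of procollagen cleavage, fell by 7.70 (SE 0.33), with levels of 40.7, 0.239 and 50.7 CPM in control and 0.319, 38.6 and 0.130 CPM in KO. P3H3, of the prolyl 3-hydroxylase family, CREB3L1, a transcription factor of collagen-secreting cells, and the procollagen protease gene ADAMTS2 were lower too, with log2 fold changes of −5.37 (SE 0.23), −5.23 (SE 0.19) and −4.11 (SE 0.48). SERPINH1, the collagen chaperone, named after its value was seen, fell less, by 0.52 (SE 0.12).

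Of 25 genes listed for collagen promoters, 23 were tested, 6 were lower, 4 higher and 13 not called, with a median of −0.0021. Besides transcription factors the list takes in the ligand and receptor genes TGFB1, TGFB2, TGFB3, TGFBR1 and TGFBR2. TGFB2 and TGFBR1 are among the 6 lower. The growth factor gene TGFB2 fell by 4.76 (SE 0.22), at 51.4, 1.58 and 48.1 CPM in control and 1.49, 73.1 and 2.17 CPM in KO. PRRX1 fell by 4.79 (SE 0.85) but reached at most 0.831 CPM, and TWIST1 fell by 1.37 (SE 0.39), both being mesenchymal transcription factors. KLF4 rose by 1.29 (SE 0.14), at 42.1, 69.0 and 34.5 CPM in control and 99.8, 73.2 and 89.1 CPM in KO. Unlike in the collagens, its labelled groups did not overlap. The same held for SMAD2, SMAD3 and ETS1 of this list and for 13.8% of all genes tested. By label KLF4 was not called (log2 fold change 0.85, SE 0.27, edgeR adjusted p = 0.63). SP1, which binds GC boxes and is named after its value was seen, was not called, with 126.5, 116.8 and 121.1 CPM in control and 136.2, 119.8 and 113.7 CPM in KO.

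Genes whose profile lay closest to a member were taken over 12013 genes whose log2 CPM averaged 1 or more, by the root mean square difference of centred log2 CPM over the 6 libraries. For COL1A1 they were PLPP3 (0.14), FN1 (0.16) and RCN3 (0.19). FN1, encoding fibronectin, was also the closest to COL12A1 (0.16), followed by FBLN5 (0.18) and FHAD1 (0.20). DTX3 (0.15), PSG4 (0.23) and ABI3BP (0.28) were the closest to COL5A1, and MTSS1 (0.03), DCUN1D5 (0.04) and YRDC (0.05) to COL8A1.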

How the data were processed

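A single table of expected counts from RSEM, with 1 column for each library, was deposited by the authors. The values are estimated read numbers, not normalized, and 9.42% to 10.6% of them in a library were not whole. RSEM, Bowtie2, edgeR and GRCh38 are named per the submitters' processing notes; which versions, annotation and strandedness applied is not given in the sources used here. Counts were rounded and tested with edgeR 4.0.16 (R 4.3.3; TMM factors 0.991 to 1.015, filterByExpr, quasi-likelihood test, Benjamini-Hochberg adjusted p under 0.05 called) over all genes, and the standard error was the fold change over the root of F. The steps were tested on simulated data. Ratios of chains used a pseudocount of 0.5 and an exact permutation test. Alternatives were scaling by RLE, by upper quartile or by library size alone, other filters, a replicate block, DESeq2 1.42.0, limma-voom (limma 3.58.1) and leaving out libraries. Members, lists and the comparison without both R2 libraries were chosen with earlier results of these data known. Named genes were the members, called genes of other collagens, up to 4 called genes a list by size of change, and the 3 closest profiles of 4 members; COL16A1, COL8A2, DDR1, ITGA2, SERPINH1 and SP1 were named after their values were seen. Positions and lengths are from GENCODE release 29 (GRCh38), which may differ from the authors' release.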

Additional observations from a re-analysis of the deposited data

How the results depend on the processing

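By label, the count of collagen genes called was 0 under each setting run with all 6 libraries and with each library left out (0 to 0), and over all genes it was 0 except with DESeq2, which called 124, none of them among the 7 members it gave an adjusted p. Without both R2 libraries it was 9 collagen genes and 4055 genes in all; there, the 9 were called under each setting, and leaving out 1 more library left 2543 (without control R1) to 3700 genes called, the lone library being assumed to vary like the pair. None of the 132 alternative fold changes of single members by label, nor of the 108 without both R2 libraries, changed direction, but leaving out 1 library moved the labelled values of members by over 1.5 times: COL6A2 ran from −7.03 (without KO R2) to −0.07 (without control R3), COL6A3 from −5.01 to −0.32 and COL1A1 from −2.82 to −0.37, without the same libraries. The ratio of COL1A1 to COL1A2 reversed with a pseudocount of 5 (−0.74) and ran from −0.02 (without KO R2) to 0.70 with a library left out. That of COL6A3 to COL6A1 ran from −1.99 to 0.17 and reversed without control R1 (0.17), control R3 (0.14) or KO R3 (0.12); the cause was not tested. With a library left out, COL5A1 to COL5A2 ran from −1.94 to −0.06 and COL6A2 to COL6A1 from −3.18 to −0.29. Control and KO share replicate numbers, and same-numbered libraries deviated from their group means in opposite directions (correlations −0.627, −0.846 and −0.67). So did control R1 with KO R3 (−0.602) and control R3 with KO R1 (−0.374), as R2 stood apart in both groups. These correlations thus cannot show whether the numbers pair libraries. With the replicate block 0 members and 0 genes were called by label. The ratios kept differences of 0.42, −0.82, −0.56 and −1.34 (exact sign-flip permutation p 0.5, 0.75, 1.0 and 1.0, where 3 pairs cannot go below 0.25). In the comparison without both R2 libraries the block gave 2705 genes and 9 members. Depth limits COL1A2, COL3A1 and COL6A2, whose low values rest on 0 to 11 counts.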
